A study of Homo sapiens with 20 samples.

Results

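The transcripts described here are those encoded by mitochondrial DNA, taken as every Ensembl gene of the deposited count table that lies on the mitochondrial chromosome and has a symbol starting with MT-. They numbered 36 of the 41092 genes and repeat subfamilies in the table: 13 mRNAs, 2 rRNAs and 21 tRNAs. GENCODE release 29 lists 37 mitochondrial genes, and the remaining tRNA gene was not analysed here. The filter on low counts passed 35 of the 36, and MT-TA, with 3 to 13 counts per library, did not pass. None of the 36 was chosen by its values.

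The study asked which transcripts change when the proteasome is inhibited in HCT-116, a human cell line established from a colorectal cancer, and sequenced its total RNA after removal of ribosomal RNA. The 20 libraries formed 5 groups of 4. In 4 of the groups a thymidine block (2 mM for 16 h, which halts DNA synthesis) and 7 h in fresh medium brought the cells to G2. Of these, 1 group then received 20 µM MG132, a peptide aldehyde proteasome inhibitor, with 50 µg/ml α-amanitin, a mushroom toxin that inhibits RNA polymerase II, for 3 h. The others received 20 µM MG132 alone for 3 h, 100 nM bortezomib, a boronic acid proteasome inhibitor, for 3 h, or no drug (G2, collected at 0 h of drug). Asynchronous cells were neither synchronised nor treated. A 3 h vehicle group was not analysed here, so each drug group set against G2 also differs from it by 3 h of time. Separate cultures are not recorded for the replicates, and the p-values therefore reflect library-to-library spread, which may be technical.

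Human mitochondrial DNA is a small circle transcribed from both strands by POLRMT, a nuclear-encoded RNA polymerase related to those of bacteriophages, together with the factors TFAM and TFB2M. RNA polymerase II does not transcribe it, and α-amanitin does not target POLRMT. The heavy-strand promoter gives long precursors that carry both rRNAs, most tRNAs and every mRNA but 1, and the light-strand promoter gives the precursor of MT-ND6 and the other tRNAs. tRNAs sit between the longer genes and are cut out of the precursors, which frees the mRNAs and rRNAs, so genes of the same precursor can still reach different levels through their stability. The mRNAs encode subunits of respiratory complexes I (MT-ND genes), III (MT-CYB), IV (MT-CO genes) and V (MT-ATP genes). All other subunits, and the whole machinery of mitochondrial transcription, are products of nuclear genes and RNA polymerase II.

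Mitochondrial genes are packed so closely that some mRNAs share bases, and a read from shared bases can be counted to either gene. The 3′ ends of MT-ATP8 and MT-ND4L are shown because they carry these overlaps, in the GENCODE 29 sequence on hg38, with capitals for the bases that also belong to the next gene. MT-ATP8, at chrM:8483-8572 on the + strand, shares 46 bases with MT-ATP6, and MT-ND4L, at chrM:10707-10766 on the + strand, shares 7 bases with MT-ND4.
MT-ATP8: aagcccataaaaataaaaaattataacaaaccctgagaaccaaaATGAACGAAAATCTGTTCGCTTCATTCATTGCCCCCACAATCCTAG
MT-ND4L: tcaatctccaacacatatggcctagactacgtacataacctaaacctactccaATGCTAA

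Nuclear DNA holds old copies of mitochondrial genes, and reads from nearly identical stretches cannot be placed with certainty. The table had 90 such copies, of which 8 passed the filter. Of these, 0 were called in any comparison, where 0.0369% to 3.35% of all genes were, a share at which 0 of 8 is no result. MTATP6P1, a copy of MT-ATP6 at chr1:633696-634376 on the + strand, matched MT-ATP6 at 98.5% of 681 bases. The stretch of 120 bases shown was chosen for holding the most differing bases of the stretches examined. Those 4 bases, in capitals, are all that separates the pair there (MT-ATP6 at chrM:8607-8726, MTATP6P1 at chr1:633776-633895, both + strand, hg38).
MT-ATP6: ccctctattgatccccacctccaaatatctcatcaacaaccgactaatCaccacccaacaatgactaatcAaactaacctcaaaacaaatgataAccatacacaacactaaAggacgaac
MTATP6P1: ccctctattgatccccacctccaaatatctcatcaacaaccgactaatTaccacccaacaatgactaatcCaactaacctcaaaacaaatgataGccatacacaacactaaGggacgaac
The count on MTATP6P1 was between 9.10% and 13.0% of the MT-ATP6 count in every library. The next most abundant copies were MTCO1P12, 98.7% identical to MT-CO1, and MTND2P28, with at most 11.8 and 7.20 CPM, that is counts scaled to a common library size and expressed per 10 to the power of 6 counts. How reads with several alignments were treated is not given in the sources used here, so the level of the copy is uncertain as a whole, and how many reads of MT-ATP6 were placed on copies or set aside is not known.

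Library totals ranged from 26797395 to 39710457 counts. CPM values use library sizes adjusted by TMM factors, which were 0.718 for asynchronous replicate 1, 0.849 for G2 replicate 1, 0.862 for MG132 replicate 2 and 0.964 to 1.13 for the others. The drug effects were visible in nuclear genes. HSPA1B, a heat shock chaperone gene, averaged 504 ± 136 CPM with MG132 plus α-amanitin and 4396 ± 949 CPM with MG132 alone (SD, n = 4 each; log2 fold change -3.12, edgeR adjusted p = 1.57e-06). MYC, whose mRNA is short-lived, averaged 104 ± 6.43 CPM with MG132 plus α-amanitin and 276 ± 41.2 CPM with MG132 alone (SD, n = 4 each; log2 fold change -1.41, edgeR adjusted p = 0.000395). The 8 epithelial markers summed to between 3300 and 6090 CPM in every library, against 3.79 to 16.8 CPM for the 10 fibroblast markers and 0.653 to 2.32 CPM for the 9 matched leukocyte markers. Each sample code holds a letter whose meaning the labels do not give. There were 7 letters, spread unevenly over the groups, and the 5 libraries of letters L and W stood apart in MT-ND6, as described further on.

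Mitochondrial transcripts took between 1.02% and 2.92% of all counts, with a median of 1.47%. The mRNAs made up 1.56%, 1.83%, 1.46% and 1.25% of counts with MG132 plus α-amanitin, and 1.39%, 1.13%, 1.15% and 1.15% with MG132 alone. With bortezomib the share was 1.16%, 1.15%, 1.22% and 1.40%. G2 libraries had 0.793%, 1.20%, 1.23% and 1.20%, and asynchronous libraries 1.46%, 0.890%, 0.830% and 1.16%. The lowest α-amanitin library lay within the range of the MG132 libraries and the other 3 lay above it. All 4 G2 libraries lay below all 4 α-amanitin libraries, with a narrow gap between 1.23% and 1.25%, and G2 overlapped with MG132 alone and with bortezomib. Asynchronous libraries overlapped with every other group. Counting error was far smaller than this spread: G2 replicate 1, the lowest, had a 95% Wilson interval of 0.790% to 0.796%, which like all such intervals here covers counting error only. In bulk RNA a larger share can come from more mitochondrial RNA per cell or from less nuclear RNA, and a change in the number of cells of a kind cannot be told apart from a change in RNA per cell.

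**Figure D1:**
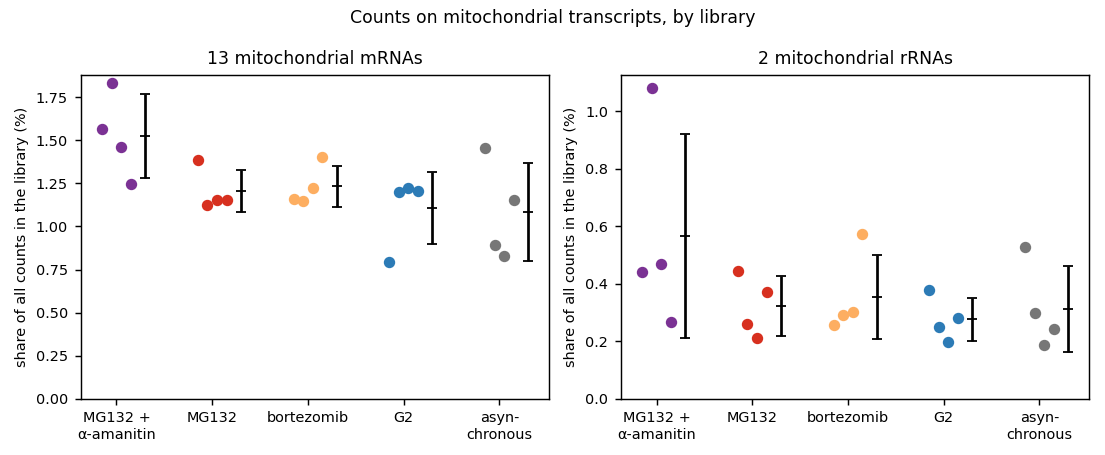
Share of all counts, in percent, on the 13 mitochondrial mRNAs (left) and the 2 mitochondrial rRNAs (right), with a point per library and the mean ± SD of 4 libraries beside each group. The MG132 plus α-amanitin libraries ran from 1.25% to 1.83% for mRNAs, against 1.13% to 1.39% with MG132 alone, and α-amanitin replicate 2 stood highest for rRNAs at 1.08%.

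The rRNAs, measured after rRNA depletion, took 0.441%, 1.08%, 0.470% and 0.268% of counts with MG132 plus α-amanitin, against 0.445%, 0.260%, 0.213% and 0.371% with MG132 alone. They lay between 0.256% and 0.572% with bortezomib, between 0.197% and 0.376% in G2 and between 0.187% and 0.526% in asynchronous cells. Every group overlapped with every other. The tRNAs gave only 739 to 2018 counts per library, 0.289% of all counts on the 36 genes, and libraries of this kind recover few fragments of such short RNAs.

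Levels per length differed widely among the genes. As means over the 20 libraries, MT-CO3 reached 4002 CPM per kb, MT-CO1 3145 and MT-CO2 2498, and these 3 complex IV subunits held between 69.8% and 86.9% of the mRNA counts of a library (median 79.1%). MT-RNR2, the 16S rRNA, followed at 2034 CPM per kb, and MT-RNR1, the 12S rRNA, stood at 562. Both were measured after rRNA depletion, so their place in this order need not be that in the cells. The complex I subunits ranged from 821 CPM per kb for MT-ND3 through 497 for MT-ND4L, 432 for MT-ND4, 227 for MT-ND1, 185 for MT-ND2 and 169 for MT-ND5 to 45.6 for MT-ND6. The complex V subunits MT-ATP6 and MT-ATP8 stood at 718 and 385 CPM per kb, and MT-CYB, the cytochrome b of complex III, at 281. Of neighbours in this order, MT-CO3 exceeded MT-CO1, MT-RNR2 exceeded MT-ND3, MT-ND1 exceeded MT-ND2 and MT-ND5 exceeded MT-ND6 in 20 of 20 libraries. MT-CO1 exceeded MT-CO2, MT-ND4L exceeded MT-ND4 and MT-ATP8 exceeded MT-CYB in 19. The order was less regular for MT-ATP6 over MT-RNR1 and MT-CYB over MT-ND1 (17 of 20 each), MT-CO2 over MT-RNR2 (16) and MT-ND3 over MT-ATP6 (14). MT-ND2 exceeded MT-ND5 in 13 libraries, and MT-RNR1 over MT-ND4L and MT-ND4 over MT-ATP8 held in only 10.

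The spread between replicates differed among the mRNAs and rRNAs, in a graded series. MT-CO1 ranged 2.11-fold from its lowest to its highest library, with a pooled SD within groups of 0.23 on the log2 scale, and MT-CO3 ranged 2.57-fold with an SD of 0.30. MT-ND3, MT-CO2, MT-ATP8 and MT-ATP6 followed with SDs of 0.37, 0.43, 0.43 and 0.51. MT-ND4 ranged 5.29-fold with an SD of 0.72, MT-ND5 4.82-fold with 0.59, MT-RNR2 5.66-fold with 0.66 and MT-RNR1 7.37-fold with 0.75. The part of rRNA depletion in the spread of the rRNAs was not tested. The widest of the mRNAs and rRNAs was MT-ND6, from the light-strand promoter, at 7.92-fold and an SD of 0.82. Several of the more variable genes had the same high libraries. MT-ND1, MT-ND2, MT-ATP6, MT-ND4L, MT-ND4 and MT-CYB were each highest in α-amanitin replicate 2 or asynchronous replicate 1, and MG132 replicate 1 and bortezomib replicate 4 held the highest value of their group for each of them.

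**Figure D2:**
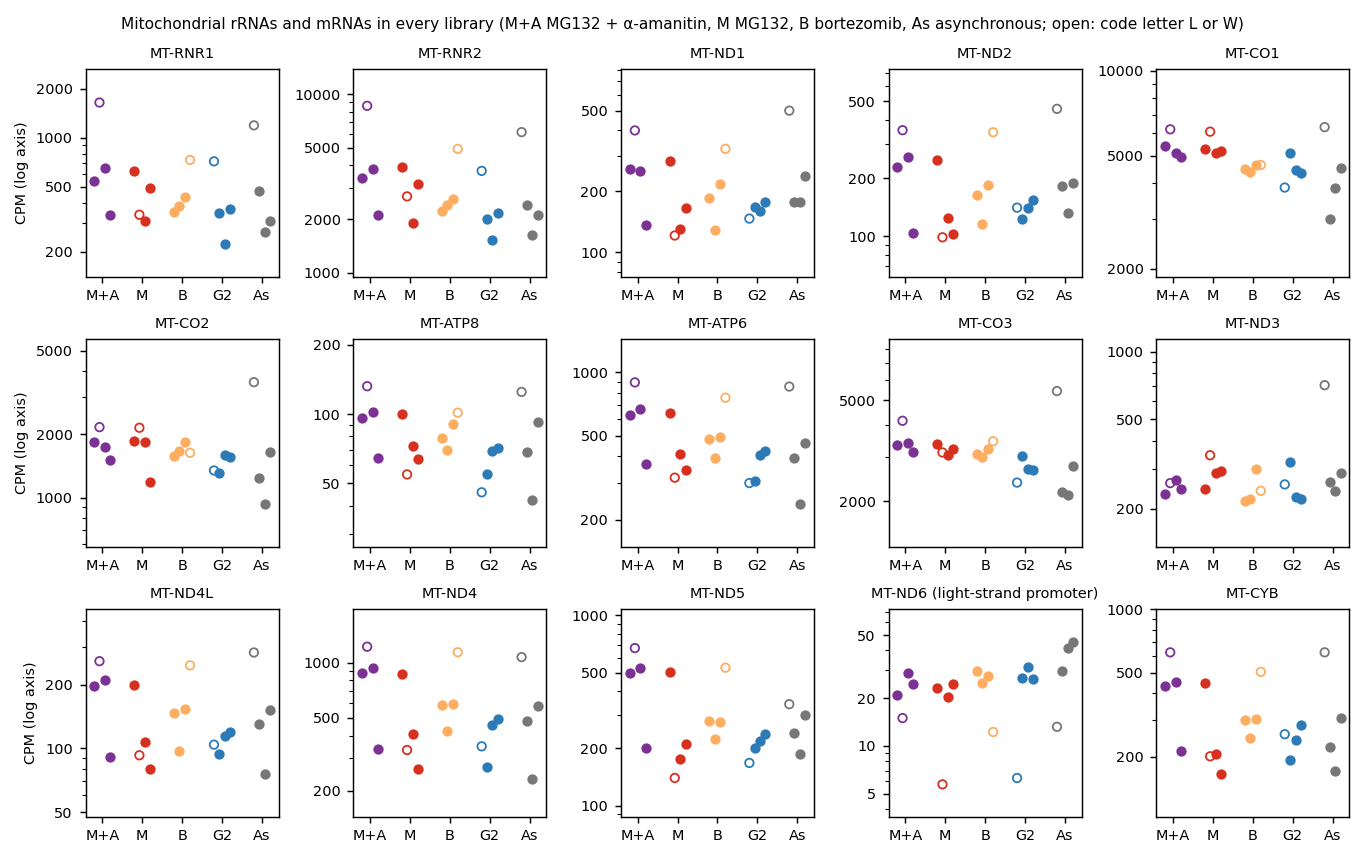
CPM on log axes for the 2 rRNAs and 13 mRNAs in heavy-strand gene order, with a point per library and open points for libraries of code letters L and W. MT-CO1 ranged 2.11-fold over the 20 libraries, while MT-ND4 ranged 5.29-fold and the open points of MT-ND6 lay lowest within every group.

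Adding α-amanitin to MG132 asks how RNA polymerase II inhibition alters the response at matched time. The addition left 0 of the 35 tested mitochondrial transcripts called by edgeR's quasi-likelihood test at an adjusted p under 0.05. Of the 18959 genes tested, 2.19% were called (0.68% higher and 1.51% lower). At this share, and at the shares called by edgeR in the comparisons below, 0 of 35 is no result. At an unadjusted p under 0.05 there was 1 transcript, where 12.5% of all genes were. Limma-voom and DESeq2 also called 0, where they called 2.26% and 3.75% of all genes. The log2 fold changes ran from -0.32 to 0.89 with a median of 0.14 and 24 of 35 above 0, against a median of 0.02 over all genes tested. With total library size scaling the median was 0.31, with 31 of 35 above 0, and that over all genes was 0.20. The mRNAs had a median of 0.58, the rRNAs 0.74 and the tRNAs 0.02. Without α-amanitin replicate 2 the median was 0.37 for the mRNAs, and MT-RNR1 and MT-RNR2 stood at 0.21 and 0.10. In 0 of the 35 did the libraries of the groups fail to overlap, where 4.82% of all genes were higher and 4.01% lower without overlap. The precision was limited: in 16 of the 35 the 95% interval of the log2 fold change lay within -1 to 1.

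MT-ND5, the last complex I gene on the heavy-strand precursor, had the highest log2 fold change of this comparison. It had 497.7, 673.2, 530.7 and 201.3 CPM with MG132 plus α-amanitin, against 502.5, 139.8, 175.9 and 210.8 CPM with MG132 alone. In each group 1 library went against the others, α-amanitin replicate 4 low and MG132 replicate 1 high, so the groups overlapped. The log2 fold change was 0.89 ± 0.39 (SE; 95% interval 0.08 to 1.69, edgeR adjusted p = 0.328). Without MG132 replicate 1 it was 1.44 with an adjusted p of 0.0414, and MT-ND5 was then the only transcript called. MT-ND4, the neighbouring complex I subunit, had 878.9, 1220.2, 929.3 and 335.9 CPM with MG132 plus α-amanitin, against 865.5, 333.5, 409.1 and 263.2 CPM with MG132 alone (log2 fold change 0.85 ± 0.45, SE, edgeR adjusted p = 0.477).

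For MT-ND5, MT-ND4 and the share on mRNAs, libraries that share code letter K or O differed less than the groups did, and those of letter L more. For MT-ND5 the log2 difference of MG132 plus α-amanitin minus MG132 was -0.01 in letter K (1 library each), 2.27 in letter L (1 each) and 0.06 in letter O (1 against 2). For MT-ND4 it was 0.02, 1.87 and 0.03 in the same letters. α-Amanitin replicate 3 has letter M, for which there was no MG132 library. The share of counts on mRNAs differed by 0.178, 0.705 and 0.0932 percentage points in letters K, L and O. Without the libraries of letters L and W, a choice made after seeing the data, the log2 fold change of MT-ND5 was 0.46 (edgeR adjusted p = 0.914), and 0 transcripts were called.

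MT-CO1, the catalytic subunit of complex IV, had nearly equal levels in both groups after TMM scaling. It had 5399.7, 6206.1, 5117.9 and 4944.7 CPM with MG132 plus α-amanitin, against 5292.2, 6090.4, 5131.8 and 5186.8 CPM with MG132 alone. Its log2 fold change was -0.00 with a 95% interval of -0.42 to 0.41 (edgeR adjusted p = 0.997). With other scalings it ran from -0.04 to 0.17. MT-CO2 and MT-CO3 had log2 fold changes of 0.04 and 0.14, and MT-ND3 one of -0.22. The remaining complex I, III and V mRNAs on the heavy-strand precursor lay between 0.44 for MT-ATP8 and 0.89 for MT-ND5. MYC and HSPA1B, by contrast, were lower with MG132 plus α-amanitin than with MG132 alone in the same libraries. HSPA1B averaged 356 ± 63.6 CPM in G2 (SD, n = 4), and MG132 alone raised it (log2 fold change 3.63, edgeR adjusted p = 4.15e-07). With MG132 plus α-amanitin it was not called against G2 (log2 fold change 0.50, edgeR adjusted p = 0.434).

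Against G2, MG132 plus α-amanitin again left 0 of 35 called by edgeR, with 3.35% of all genes called (1.04% higher and 2.32% lower). There were 8 transcripts at an unadjusted p under 0.05, where 14.4% of all genes were. Limma-voom called 0 and DESeq2 called 1, MT-ND5, where they called 3.38% and 5.25% of all genes. The comparison shares its α-amanitin libraries with the one above, so the values are not independent of it. The median log2 fold change was 0.44 over the 35 (0.71 for mRNAs, 0.94 for rRNAs and 0.37 for tRNAs), against -0.00 over all genes, and 31 of the 35 lay above 0. MT-ND5 averaged 476 CPM with MG132 plus α-amanitin and 207 CPM in G2, where its 4 libraries had 167.7, 201.6, 218.8 and 238.8 CPM. Of the α-amanitin libraries, 3 lay far above all G2 libraries and replicate 4 lay among them. Its log2 fold change was 1.20 ± 0.39 (SE; 95% interval 0.39 to 2.01, edgeR adjusted p = 0.105). It was 1.20 by DESeq2 (adjusted p = 0.0374) and 1.45 by edgeR without α-amanitin replicate 4 (adjusted p = 0.0363), and 0.79 in an edgeR fit blocked on code letters (adjusted p = 0.487). Within letters the log2 difference was 2.01 in L and -0.12 in O.

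Of the other transcripts in that comparison, MT-CO3 and MT-TL1 were higher without overlap, 2 of 35 where 7.76% of all genes were, and 0 were lower without overlap where 7.24% of all genes were. MT-CO3 had 3328, 4157, 3410 and 3143 CPM with MG132 plus α-amanitin, against 2371, 3018, 2694 and 2653 CPM in G2 (log2 fold change 0.39, edgeR adjusted p = 0.516). The rRNAs MT-RNR1 and MT-RNR2 had log2 fold changes of 0.95 and 0.94, which were 0.31 and 0.41 without α-amanitin replicate 2. That library held the highest value of both among the 20 libraries, at 1648 and 8610 CPM. MT-ND6 and MT-ND3 stood at -0.03 each.

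MG132 alone against G2, which shares its libraries with both comparisons above, left 0 of 35 called by edgeR, limma-voom or DESeq2, with 2.08% of all genes called by edgeR (1.01% higher and 1.08% lower), 2.1% by limma-voom and 3.34% by DESeq2. At an unadjusted p under 0.05 there were 0 transcripts, where 11.8% of all genes were. The median log2 fold change was 0.22, with 31 of 35 above 0, against -0.03 over all genes. With total library size scaling it was 0.12, with 25 above 0, against -0.15 over all genes. The 13 mRNAs had a median of 0.25, which without MG132 replicate 1 was -0.21, and lay between -0.30 for MT-ND6 and 0.32 for MT-ND5. MT-CO1, MT-CO3 and MT-TL1 were higher without overlap, 3 of 35 where 2.07% of all genes were, and 0 were lower without overlap where 4.45% of all genes were. MT-CO1 had 5292.2, 6090.4, 5131.8 and 5186.8 CPM with MG132, against 3865.4, 5119.1, 4473.3 and 4344.2 CPM in G2. The lowest MG132 library lay just above the highest G2 library, and the log2 fold change of 0.29 had a 95% interval of -0.13 to 0.70 (edgeR adjusted p = 0.689).

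Bortezomib against G2 left 0 of 35 called by edgeR, limma-voom or DESeq2, with 1.15% of all genes called by edgeR (0.491% higher and 0.659% lower), 1.13% by limma-voom and 3.26% by DESeq2. At an unadjusted p under 0.05 there were 0 transcripts, where 14.5% of all genes were. The median log2 fold change was 0.24, against -0.01 over all genes. The mRNAs had a median of 0.47, which was 0.23 without bortezomib replicate 4. MT-ND4 was the highest, with 588.0, 424.8, 592.9 and 1138.1 CPM with bortezomib, against 349.2, 268.0, 456.0 and 490.0 CPM in G2. The groups overlapped and bortezomib replicate 4, of letter W, stood highest (log2 fold change 0.81 ± 0.45, SE, edgeR adjusted p = 0.427). Without the libraries of letters L and W its log2 fold change was 0.37. No transcript separated the groups without overlap, where 7.66% of all genes were higher and 7.55% lower.

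MG132 and bortezomib differ in structure as an aldehyde and a boronic acid and were given at different concentrations, 20 µM and 100 nM, so their readouts stand side by side here. MG132 against bortezomib gave 0 of 35 called by edgeR, limma-voom or DESeq2, with 0.0369% of all genes called by edgeR and by limma-voom and 0.1% by DESeq2. At an unadjusted p under 0.05 there were 0 transcripts, where 4.05% of all genes were. The log2 fold changes lay between -0.55 for MT-ND4 and 0.56 for MT-TC, and 15 of the 35 intervals lay within -1 to 1. MT-CO1 was higher without overlap, 1 of 35 where 1.74% of all genes were, and 0 were lower where 1.42% of all genes were. It had 5131.8 CPM in the lowest MG132 library and 4644.6 CPM in the highest bortezomib library (log2 fold change 0.26, 95% interval -0.16 to 0.67, edgeR adjusted p = 0.983).

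**Figure D3:**
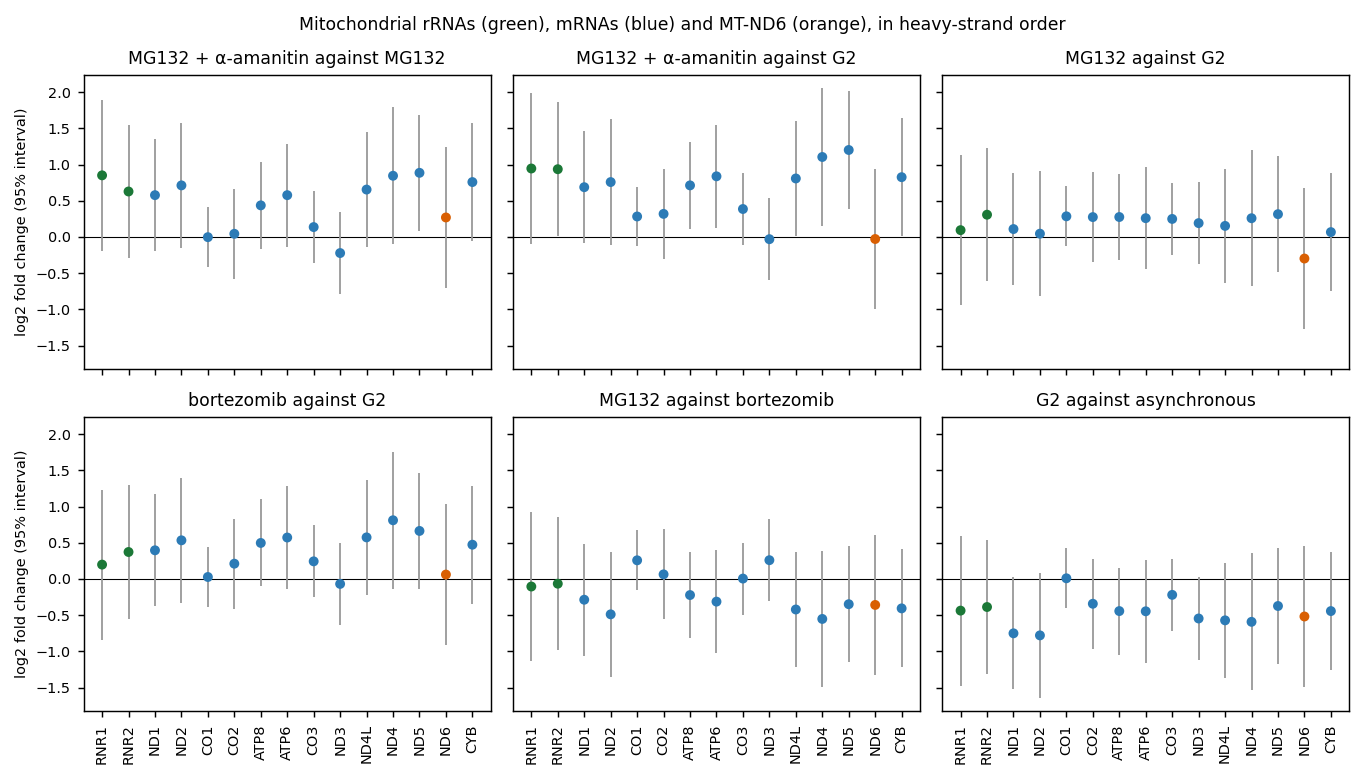
Log2 fold change of each mitochondrial rRNA (green), heavy-strand mRNA (blue) and MT-ND6 (orange) in the 6 comparisons, with 95% intervals from the edgeR fit of all 20 libraries (4 per group). MT-ND5 at 1.20 was the highest of the 15 against G2 with MG132 plus α-amanitin, and 0 of the points shown was called in any panel.

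Synchronised G2 cells against asynchronous cells gave 0 of 35 called by edgeR, with 2.09% of all genes called (1.95% higher and 0.148% lower). There were 6 transcripts at an unadjusted p under 0.05, each of them a tRNA, where 13.1% of all genes were. Limma-voom called 0 and DESeq2 called 1, MT-TL1, where they called 1.95% and 3.68% of all genes. The median log2 fold change was -0.49, against -0.04 over all genes, and 31 of the 35 lay below 0. With total library size scaling it was -0.24, against 0.12 over all genes. The mRNAs had a median of -0.45, the rRNAs -0.41 and the tRNAs -0.53. Asynchronous replicate 1, of letter L, had the highest value of its group for both rRNAs and for 12 of the 13 mRNAs, MT-ND6 being the exception, where it had the lowest. Without that library the median was -0.13, with 21 of the 35 below 0, and MT-RNR1 and MT-RNR2 stood at 0.25 and 0.20. For MT-ND4 the log2 difference of G2 minus asynchronous was -1.62 in letter L (1 library each) and 0.76 in letter O (3 against 1). The summed fibroblast and leukocyte markers, both low, also differed in this comparison. The 10 fibroblast markers summed to 7.77 to 13.0 CPM in G2 and 3.79 to 5.06 CPM in asynchronous cells. Of these, 2 passed the filter, COL1A1 and ACTA2, and both were called higher. The 9 leukocyte markers summed to 0.979 to 1.46 CPM in G2 and 0.653 to 0.785 CPM in asynchronous cells. Only 1 of the 9 passed the filter, and it was not called. None of either list was at 0 in all 20 libraries, and their part in the result was not tested.

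MT-TL1, which reads leucine codons and lies between MT-RNR2 and MT-ND1, was the tRNA with the lowest adjusted p in this comparison, and MT-TS1, a serine tRNA read from the other strand, had the lowest log2 fold change. Their genes are shown as the source of these few counts, with the anticodon in capitals (MT-TL1 at chrM:3230-3304 on the + strand, MT-TS1 at chrM:7446-7514 on the − strand, hg38). MT-TP and MT-TT, the proline and threonine tRNAs at chrM:15956-16023 on the − strand and chrM:15888-15953 on the + strand, are added as the most counted of the 21.
MT-TL1: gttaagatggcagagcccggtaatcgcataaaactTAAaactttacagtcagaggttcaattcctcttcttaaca
MT-TS1: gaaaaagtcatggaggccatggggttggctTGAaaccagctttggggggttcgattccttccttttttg
MT-TP: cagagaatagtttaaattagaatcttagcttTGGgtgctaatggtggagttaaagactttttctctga
MT-TT: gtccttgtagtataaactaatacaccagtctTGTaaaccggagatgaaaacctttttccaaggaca
MT-TL1 had 2.35, 1.98, 1.53 and 1.96 CPM in G2, against 6.77, 3.01, 2.78 and 3.46 CPM in asynchronous cells. All G2 libraries lay below all asynchronous ones, on 44 to 179 counts per library over the series. The log2 fold change was -1.03 ± 0.32 (SE; 95% interval -1.70 to -0.35, edgeR adjusted p = 0.115), and it was -1.05 by DESeq2 (adjusted p = 0.0440). MT-TS1 had 0.514, 0.728, 0.644 and 0.132 CPM in G2, against 1.52, 0.627, 1.85 and 1.08 CPM in asynchronous cells, on 5 to 52 counts per library (log2 fold change -1.32, edgeR adjusted p = 0.234). Its groups overlapped. MT-TE, the glutamate tRNA, and MT-ND1 were also lower without overlap, which with MT-TL1 made 3 of 35 where 1.89% of all genes were, and 0 were higher without overlap where 5.75% of all genes were. For MT-ND1 the gap was narrow, with 176.7 CPM in the highest G2 library and 176.9 CPM in the lowest asynchronous one.

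MT-TL1 lay above G2 in both MG132 groups and overlapped with it under bortezomib. It had 3.40, 5.60, 3.65 and 2.65 CPM with MG132 plus α-amanitin and 3.98, 2.37, 2.40 and 2.53 CPM with MG132 alone, all above the 4 G2 libraries. For MG132 alone the gap was very narrow, with 2.37 CPM in its lowest library and 2.35 CPM in the highest G2 library. With bortezomib MT-TL1 had 2.60, 1.5, 3.03 and 3.63 CPM, with replicate 2 below all G2 libraries. Its log2 fold change against G2 was 0.97 with MG132 plus α-amanitin (edgeR adjusted p = 0.117) and 0.53 with MG132 alone (edgeR adjusted p = 0.607), and both share the G2 libraries with the comparison of G2 and asynchronous cells. MT-TP stood at -0.74 in G2 against asynchronous cells (edgeR adjusted p = 0.386) and between -0.24 and 0.14 in the other comparisons, and MT-TT between -0.18 and 0.20 in all 6. The 7 light-strand tRNAs, MT-TP and MT-TS1 among them, took between 17.6% and 48.5% of tRNA counts per library.

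MT-ND6, the complex I subunit read from the light-strand promoter, was described as a share of mitochondrial mRNA counts, which does not depend on nuclear transcripts. It took 0.149%, 0.0864%, 0.206% and 0.215% with MG132 plus α-amanitin, and 0.165%, 0.0439%, 0.170% and 0.218% with MG132 alone. With bortezomib it took 0.256%, 0.227%, 0.225% and 0.0879%. In G2 it took 0.0672%, 0.240%, 0.290% and 0.244%, and in asynchronous cells 0.0651%, 0.347%, 0.492% and 0.392%. The lowest library of every group carried letter L or W. All 5 libraries of those letters were at or below 0.0879%, and the other 15 were at or above 0.149%. The gap was wider than counting error: the lowest library, MG132 replicate 2, had a 95% Wilson interval of 0.0373% to 0.0516%, and the highest, asynchronous replicate 3, one of 0.464% to 0.521%.

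**Figure D4:**
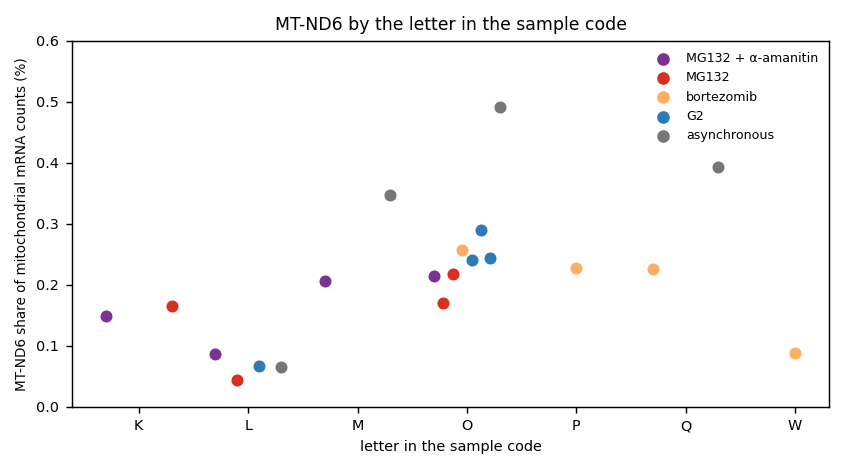
MT-ND6 as a percentage of mitochondrial mRNA counts, with a point per library placed by the letter in its sample code and coloured by group. The 5 libraries of letters L and W lay at or below 0.0879% whatever their group, and the other 15 at or above 0.149%.

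Over all libraries the share of MT-ND6 differed by no more than its spread in any comparison. It averaged 0.164% ± 0.0595 with MG132 plus α-amanitin and 0.149% ± 0.0740 with MG132 alone, where an exact two-sided permutation test gave p = 0.743 (SD, n = 4 each). It averaged 0.199% ± 0.0756 with bortezomib and 0.210% ± 0.0980 in G2 (exact permutation p = 0.771), and 0.324% ± 0.183 in asynchronous cells (exact permutation p = 0.314 for G2 against asynchronous). The smallest p that 4 against 4 allows is 0.0286, and the lowest of the 12 ratio tests after adjustment was 0.686. Within letters the difference of G2 minus asynchronous was 0.00208 percentage points in letter L (1 library each) and -0.234 in letter O (3 against 1). That of MG132 plus α-amanitin minus MG132 was -0.0162, 0.0425 and 0.0211 percentage points in letters K, L and O. Letters L and W were noticed through MT-ND6 itself, so no test of it without them is given. MT-ND6 lies opposite the heavy-strand precursor between MT-ND5 and MT-CYB, and the strand setting of the counting is not given in the sources used here, so reads of MT-ND6 and of the opposite strand cannot be told apart.

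Each heavy-strand precursor that holds the rRNAs carries both, and their ratio was steadier than their levels. Both were measured after rRNA depletion, so the ratio need not be that in the cells. MT-RNR2 counts per MT-RNR1 count were 5.92 ± 0.506 with MG132 plus α-amanitin, 6.69 ± 0.847 with MG132, 6.36 ± 0.303 with bortezomib, 5.92 ± 0.662 in G2 and 5.83 ± 0.870 in asynchronous cells (SD, n = 4 each). Over the 20 libraries the ratio ran from 5.09 to 7.96, while MT-RNR1 ranged 7.37-fold. The exact two-sided permutation tests of the ratio gave p-values from 0.2 for MG132 plus α-amanitin against MG132 to 1 for MG132 plus α-amanitin against G2.

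The nuclear genes that serve mitochondrial DNA were read in the same fit, from lists of 224 genes of which 223 were tested. POLRMT averaged 81.8 ± 12.1 CPM with MG132 plus α-amanitin and 73.6 ± 29.1 CPM with MG132 alone (SD, n = 4 each; log2 fold change 0.15, 95% interval -0.44 to 0.75, edgeR adjusted p = 0.893). TFAM, which packs and bends mitochondrial DNA at its promoters, had a log2 fold change of -0.29 and TFB2M, which opens the promoter, one of -0.49, with 95% intervals of -1.09 to 0.51 and -1.27 to 0.29. LRPPRC and SLIRP, partners that stabilise mitochondrial mRNAs, stood at -0.44 and -0.33. None of these 5 was called in any comparison, and 0 of the 10 genes of mitochondrial transcription were. Of all genes 0.0369% to 3.35% were called, a share at which 0 of 10 is no result.

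Over the 223 genes, 0 were called higher in any comparison, where 0.0369% to 1.95% of all genes were. Called lower were 1 with MG132 plus α-amanitin against MG132 (where 1.51% of all genes were) and 2 with MG132 plus α-amanitin against G2 (2.32%). With MG132 against G2 1 was called lower (1.08%). In the other comparisons 0 were called lower, where 0% to 0.659% of all genes were. MRPL18, a protein of the large mitochondrial ribosomal subunit, fell to 93.3 ± 18.5 CPM with MG132 plus α-amanitin, against 197 ± 31.1 CPM with MG132 alone (log2 fold change -1.08, edgeR adjusted p = 0.0232). DDX28, an RNA helicase of mitochondrial ribosome assembly, fell to 10.3 ± 1.10 CPM with MG132 plus α-amanitin, against 22.4 ± 5.12 CPM in G2 (log2 fold change -1.12, edgeR adjusted p = 0.00662). MRPL44, another protein of the large subunit, fell in the same comparison (-0.69, edgeR adjusted p = 0.0382). PRORP, the nuclease that cuts the 5′ ends of mitochondrial tRNAs, fell to 17.6 ± 3.46 CPM with MG132, against 27.2 ± 1.71 CPM in G2 (log2 fold change -0.63, edgeR adjusted p = 0.0360). All SDs here are over 4 libraries. The calls of MRPL18, MRPL44 and PRORP were lost when some single libraries were left out. The adjusted p of MRPL18 was 0.0501 to 0.117 without α-amanitin replicate 1, 2 or 3 or MG132 replicate 2 or 3, that of MRPL44 was 0.0661 to 0.163 without α-amanitin replicate 1, 2 or 3 or G2 replicate 1 or 2, and that of PRORP was 0.0611 to 0.124 without MG132 replicate 1 or 3 or any of the G2 replicates. DDX28 stayed called without each library in turn, but not without the libraries of letters L and W (adjusted p = 0.134).

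The medians of the nuclear genes together and of the mitochondrial mRNAs lay on opposite sides of 0 in 5 of the 6 comparisons, although in MG132 against G2 the mRNA median was -0.21 without MG132 replicate 1. With MG132 plus α-amanitin against MG132 the 223 nuclear genes had a median log2 fold change of -0.22, with 204 below 0, while the mitochondrial mRNAs had 0.58; with total library size scaling 130 of the 223 lay below 0 and their median was -0.04. With bortezomib against G2 the 11 nuclear subunits of complex IV had a median of -0.45 and the 37 of complex I one of -0.44, against 0.47 for the mitochondrial mRNAs. With MG132 against bortezomib the nuclear complex IV subunits had a median of 0.46, with 11 of 11 above 0, against -0.31 for the mitochondrial mRNAs. In G2 against asynchronous cells both lay below 0, at -0.18 for the nuclear genes and -0.45 for the mitochondrial mRNAs, although with total library size scaling the nuclear median was 0.00. These medians describe the libraries and were not tested, and those that involve G2 or MG132 share libraries with each other.

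**Figure D5:**
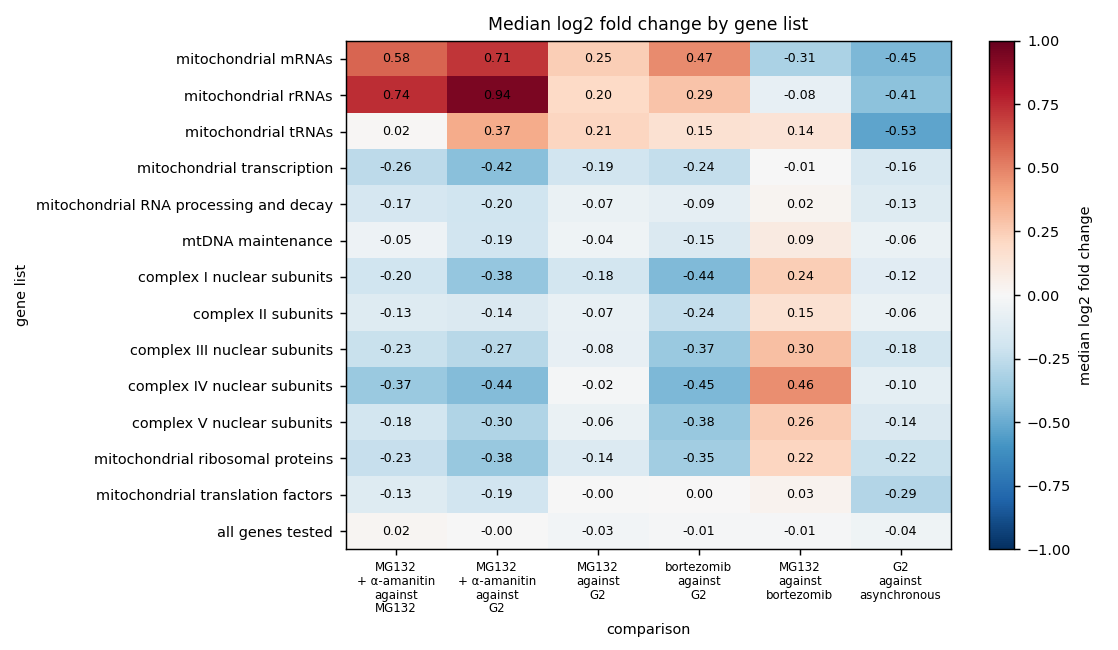
Median log2 fold change of the mitochondrial mRNAs, rRNAs and tRNAs, of the nuclear gene lists and of all genes tested, in the 6 comparisons. Red is higher and blue lower in the group named first; with MG132 plus α-amanitin against MG132 the mitochondrial mRNAs stood at 0.58 and the nuclear complex IV subunits at -0.37.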

How the data were processed

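The authors deposited raw counts, whole numbers per gene and repeat subfamily with no normalisation, per the file headers and the values. Libraries were TruSeq stranded total RNA, per the labels' protocols, and FastQC, STAR, cutadapt 1.18 and the build hg38 are named in the submitters' processing notes. No source used here gives the counting tool, the annotation, the strand setting or how multiply aligned reads were treated.

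A joint fit of all 20 libraries used edgeR 4.0.16 under R 4.3.3 (filterByExpr, TMM, robust quasi-likelihood test, 15 residual degrees of freedom). Adjusted p-values of this fit are Benjamini-Hochberg values over 18959 genes, with calls under 0.05, and the biological coefficient of variation was 33.3%. Those of DESeq2 are its own, from genes and repeat subfamilies fitted together. Fits with another filter or fewer libraries were adjusted over the genes that passed there. The procedure was run on simulated counts with a single spread for all genes, smaller than in these data, and no library standing apart. That run does not measure its error rates here. CPM, shares and ratios were computed here from the deposited counts. Ratios were tested by exact permutation, adjusted over 12 tests. Alternatives included DESeq2 1.42.0 and limma-voom (limma 3.58.1). Symbols matched 39900 genes, and positions and sequences came from GENCODE release 29. The closest replicates, G2 3 and 4, differed by a chi-square of 8.81 per degree of freedom, so no library was a duplicate.

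Named transcripts were all mRNAs and rRNAs, tRNAs called or among the 3 highest or lowest of a comparison, called members of the nuclear lists, 5 nuclear regulators, the most abundant nuclear copies, and HSPA1B and MYC; MT-TP and MT-TT as the most counted tRNAs, MT-TE for its separation of groups, and COL1A1 and ACTA2 were named after their values were seen. The members and lists were chosen with earlier results of these data known.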

Additional observations from a re-analysis of the deposited data

Results flagged for a closer look

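In all, 100 sets of 4 libraries were examined for a library standing apart. The limit was Dixon's 95% limit on the gap to the nearest library over the range. Of the 100 sets, 9 had such a library, and chance gives about 1 in 20 for a single set. The sets share libraries and counts, so 9 of 100 cannot be weighed against that rate. Each entry gives the library and then the range of the other 3. MT-CO1 was 6090 CPM in MG132 replicate 2 and 5132 to 5292 CPM in the others. MT-CYB was 447 CPM in MG132 replicate 1 and 167 to 206 CPM in the others. MT-ND3 was 709 CPM in asynchronous replicate 1 and 240 to 288 CPM in the others. MT-RNR2 was 6133 CPM in asynchronous replicate 1, with 1639 to 2400 CPM in the others, and 4938 CPM in bortezomib replicate 4, with 2215 to 2607 CPM in the others. The share of counts on mitochondrial mRNAs was 1.39% in MG132 replicate 1, with 1.13% to 1.15% in the others, and 0.793% in G2 replicate 1, with 1.20% to 1.23% in the others. The share on rRNAs was 0.572% in bortezomib replicate 4 and 0.256% to 0.302% in the others. MT-RNR2 counts per MT-RNR1 count were 7.96 in MG132 replicate 2 and 6.20 to 6.37 in the others. Of the 9, the values of MG132 replicate 1 came from a library of code letter K, and all others from libraries of letters L and W.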

How the results depend on the processing

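Alternatives were RLE and total library size scaling, scaling over nuclear genes only, no filter, a strict filter, DESeq2, limma-voom, the replicate block, a block for the code letter, a fit of the 8 libraries compared, leaving out 4 libraries that earlier work on these data had found skewed in GC content (asynchronous 3, G2 2, MG132 2 and 4), leaving out each library, and, added after seeing the data, leaving out the libraries of letters L and W. The count of called mitochondrial transcripts stayed at 0 under all of these in MG132 against G2, bortezomib against G2 and MG132 against bortezomib. Some settings called few genes at all. MG132 against bortezomib had 0 of 18959 genes called with the code letter block and at most 19, by DESeq2. Bortezomib against G2 had 30 called higher and 0 lower with the code letter block. MG132 against G2 had 81 higher and 5 lower of 17475 in the fit of the 8 libraries. At such shares, as at those of the main fit, 0 of 35 is no result. The count of called transcripts was 0 to 1 when single libraries were left out in MG132 plus α-amanitin against MG132 and against G2. By DESeq2 it was 1 in MG132 plus α-amanitin against G2 and in G2 against asynchronous. These calls were MT-ND5 and, in the last, MT-TL1, and the cause was not tested. With the replicate block 0 were called in every comparison, where at most 231 genes were higher and at most 328 lower of 18959. Deviations of equally numbered libraries correlated between -0.73 and 0.76. In MG132 plus α-amanitin against MG132 they correlated at 0.62, 0.06, 0.14 and 0.59, and replicates 1, 2 and 4 share a code letter. The labels mark no pairs, and whether the numbers pair libraries in that comparison is not settled. With 3 libraries in a group the exact ratio tests cannot pass 0.05, so leaving libraries out says nothing of their stability. Among nuclear genes the calls of MRPL18, MRPL44, PRORP and DDX28 were lost under 10, 11, 13 and 2 of 20 alternatives, all with the same sign, while those of HSPA1B and MYC were kept under all 20. Total library size scaling moved the median of all genes to 0.20 for MG132 plus α-amanitin against MG132, to -0.15 for MG132 against G2 and to 0.12 for G2 against asynchronous, and put 16 instead of 20 transcripts above 0 in MG132 against bortezomib. Intervals within -1 to 1 were reached by at most 16 of 35 transcripts.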
